A study of Mus musculus with 10 samples.

Results

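The miR-467 and miR-669 miRNAs were followed across mouse embryonic stem cells that lack single steps of the miRNA pathway. Members were all entries of the deposited count table whose name starts with miR-467 or miR-669 followed by a letter or hyphen, from either arm of the hairpin. This gave 43 of 1907 mature miRNA entries, 13 named miR-467 and 30 named miR-669. The cells were E14 embryonic stem cells of the 129/Ola background, grown on gelatine in 15% serum with 100 U/mL LIF, a cytokine that keeps them undifferentiated. The 5 groups of 2 small RNA libraries were wild type cells (WT), a Dgcr8 knockout (Dgcr8_KO), a Drosha knockout (Drosha_KO), a Dicer knockout (Dicer_KO) and a double knockout of Ago1 and Ago2 (Ago12_KO). The WT libraries came from passages 25 and 33 and the Dicer_KO libraries from clones named C1 and H11. For the other groups nothing says whether the replicates were separate clones or cultures. The p-values below therefore reflect the spread between 2 libraries a group, and that spread may be purely technical. Date-like codes stand in the labels of Dgcr8_KO and Ago12_KO alone, with a different one for each, so any batch they mark and the genotype cannot be told apart. The mRNAs of the targeted genes were not analysed here, so the knockouts could not be checked from these libraries.

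Most miRNAs are cut from a long transcript in 2 steps. The Microprocessor, made of Drosha and its RNA-binding partner Dgcr8, frees the hairpin in the nucleus, Dicer cuts the loop off in the cytoplasm, and an Argonaute protein keeps 1 strand of the resulting duplex, named 5p or 3p after the hairpin arm it came from. The miR-467 and miR-669 families belong to a repeat-derived rodent miRNA cluster inside Sfmbt2, an imprinted Polycomb gene that is needed in the placenta and is transcribed from the paternal copy. Many of its hairpins are near copies of each other, so a short read often matches several of them.

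In GENCODE M21 (GRCm38, the same assembly as mm10), 43 of the 47 annotated Mir467 and Mir669 hairpins lie on the plus strand of chromosome 2 at chr2:10467229-10518279, a stretch of 51.1 kb. All of these 43 lie in intron 10 of Sfmbt2 (the transcript Sfmbt2-201), and none overlaps an annotated Sfmbt2 exon. They comprise 14 Mir467 and 29 Mir669 hairpins, and 27 hairpins of the Mir466 and Mir297 families lie inside the same gene. The other 4 hairpins lie elsewhere: Mir467f on chromosome 11 opposite an intron of Fxr2, Mir467g on chromosome 5 opposite an intron of Grk4, Mir669n on chromosome 3 opposite an intron of Slc30a7, and Mir467h on chromosome 9 in no other annotated gene. Mature sequences of these 4 members were found in RefSeq (GRCm38.p6) and are shown as those of the members outside Sfmbt2. The RefSeq set used here held no sequence of the members inside it, so the 2 groups were not compared. Each runs 5′ to 3′ with the seed, bases 2 to 8, in capitals.
miR-467f: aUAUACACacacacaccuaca
miR-467g: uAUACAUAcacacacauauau
miR-467h: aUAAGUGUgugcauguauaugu
miR-669n: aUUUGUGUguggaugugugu
They lie at chr11:69635419-69635439 (minus strand), chr5:34732872-34732892 (minus), chr9:115381898-115381919 (plus) and chr3:115979905-115979924 (plus), and no 2 of them share a seed. The run UGUGUG occurs in 2 of them (miR-467h and miR-669n) and its reverse complement CACACA in the other 2. Of the 1679 mature sequences in that RefSeq set 2.38% hold either run, a share that leaves out the members inside Sfmbt2. These 4 members were almost without reads. miR-467g and miR-669n had no count in any library, miR-467f had 1 count in WT replicate 1, and miR-467h had 1 count in WT replicate 1 and 1 in each Dgcr8_KO library. Nearly all family reads in these cells were therefore assigned to the Sfmbt2 members.

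Several members carry counts that are exact multiples of their number of hairpin copies, so deposited counts are not reads for them. All counts of miR-467a-5p and miR-467a-3p were multiples of 10, and 10 Mir467a hairpins are annotated. Counts of miR-669a-5p were multiples of 12, the number of Mir669a hairpins, those of miR-669a-3p multiples of 11, the number without Mir669a-3, whose 3p arm has an entry of its own, and those of miR-669p-5p, miR-669m-5p and miR-669m-3p multiples of 2, again the number of hairpins. Divided by these factors, miR-467a-5p equalled miR-467b-5p, miR-467a-3p equalled miR-467d-3p, miR-669a-5p equalled miR-669p-5p, and miR-669a-3p equalled miR-669o-3p in every library, as did the undivided miR-669d-3p and miR-669d-2-3p. Such entries hold the same counts and are treated below as 1 read set. Summed over libraries, the family had 65993 deposited counts, 15558 after division and 10630 with each read set counted once. Levels below are divided counts per 1000000 counts of the library total (CPM).

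All miRNA entries together had 2357868 and 1943868 counts in the WT libraries, 349312 and 229407 in Ago12_KO and 289539 and 408654 in Dgcr8_KO. The shallowest were Dicer_KO with 45222 and 37476 counts and Drosha_KO with 39511 and 40306. A count of 0 allows up to 3 counts, which is 1.27 to 1.54 CPM in WT, 8.59 to 13.1 in Ago12_KO, 7.34 to 10.4 in Dgcr8_KO, 66.3 to 80.1 in Dicer_KO and 74.4 to 75.9 in Drosha_KO. Fold changes compare shares of counted miRNA reads: fewer miRNAs and fewer sequenced reads cannot be told apart here, nor can fewer cells with a miRNA and less of it per cell. The 8 stem cell markers of the miR-290 to miR-295 and miR-302 clusters summed to 136517 to 147665 CPM in WT, 102735 to 127382 CPM in the Microprocessor mutants, 64492 to 72634 CPM in Ago12_KO and 9995 to 11501 CPM in Dicer_KO, and miR-302b-3p and miR-302d-3p were at 0 in Drosha_KO and Dicer_KO. Of 7 fibroblast or feeder markers, which summed to 553 to 6600 CPM over all libraries, miR-214-3p was at 0 everywhere. The 6 blood markers summed to 1354 to 1765 CPM in WT, 4725 to 4780 in Dgcr8_KO, 3498 to 5644 in Drosha_KO, 427 to 597 in Dicer_KO and 8660 to 11290 in Ago12_KO, where miR-223-3p, miR-144-3p and miR-451a were at 0. The 4 liver, gut and endoderm markers summed to 1557 to 1612 CPM in WT, 174 to 509 in the Microprocessor and Dicer_KO mutants and 6816 to 11743 in Ago12_KO, with miR-122-5p at 0. Neural markers were at 2760 to 2995 CPM in WT and 160 to 1575 CPM in the mutants, and muscle markers under 10 CPM in all libraries. The part of other cells in the results was not tested.

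In WT cells the family held 0.257% and 0.160% of the counts (0.208% ± 0.0681, SD, n = 2, as are all ± values below), or 0.142% ± 0.0470 with each read set counted once. Of the 43 members, 37 had a WT count and 10 had a count in all 10 libraries. Those without a count anywhere were miR-467g, miR-669i, miR-669j, miR-669k-3p and miR-669n. Read by read, 4136 and 2118 family reads were seen in the WT replicates, and 3 read sets led: miR-669a-5p with miR-669p-5p made up 17.4% ± 1.04 of them, miR-467a-5p with miR-467b-5p 16.6% ± 0.751 and miR-467c-5p 15.0% ± 0.0507. The 5p arm was the major one, with 90.4% ± 0.133 of miR-467 reads and 79.2% ± 1.52 of miR-669 reads. The WT libraries differed from each other for the whole family. WT replicate 1 (passage 25) was above replicate 2 (passage 33) in 18 of 18 read sets that entered the tests, by a median of 1.66 times, whereas over all 481 tested entries it was above in 49.5%, with a median ratio of 0.999. Passage and replicate cannot be told apart. Ago12_KO showed such an offset too, with replicate 1 above replicate 2 in 16 of 18 read sets by a median of 1.89 times, against 0.936 over all entries.

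Across groups, the family share was 0.439% and 0.409% in Dgcr8_KO, both above the WT libraries, and 0.614% and 0.396% in Ago12_KO, again both above. In Drosha_KO it was 0.165% (95% Clopper-Pearson interval 0.127 to 0.210%) and 0.337% (0.283 to 0.399%), which overlaps the WT values, and in Dicer_KO 0.239% (0.196 to 0.288%) and 0.235% (0.188 to 0.289%), which lies between them. Intervals cover counting error only. With fragment-like entries such as miR-3963 and miR-6240 out of the totals, the Dicer_KO share was 0.453%. Its libraries, at 0.463% and 0.442%, then lay above both WT libraries, at 0.258% and 0.161%. The interleaved miR-466 and miR-297 entries, from the same transcript in part, held 0.597% ± 0.168 in WT and 0.672% ± 0.306 in Ago12_KO. In the Microprocessor mutants they held 0.160% ± 0.0117 (Dgcr8_KO) and 0.143% ± 0.00556 (Drosha_KO), and Dicer_KO had 0.0700% ± 0.0574.

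**Figure D1:**
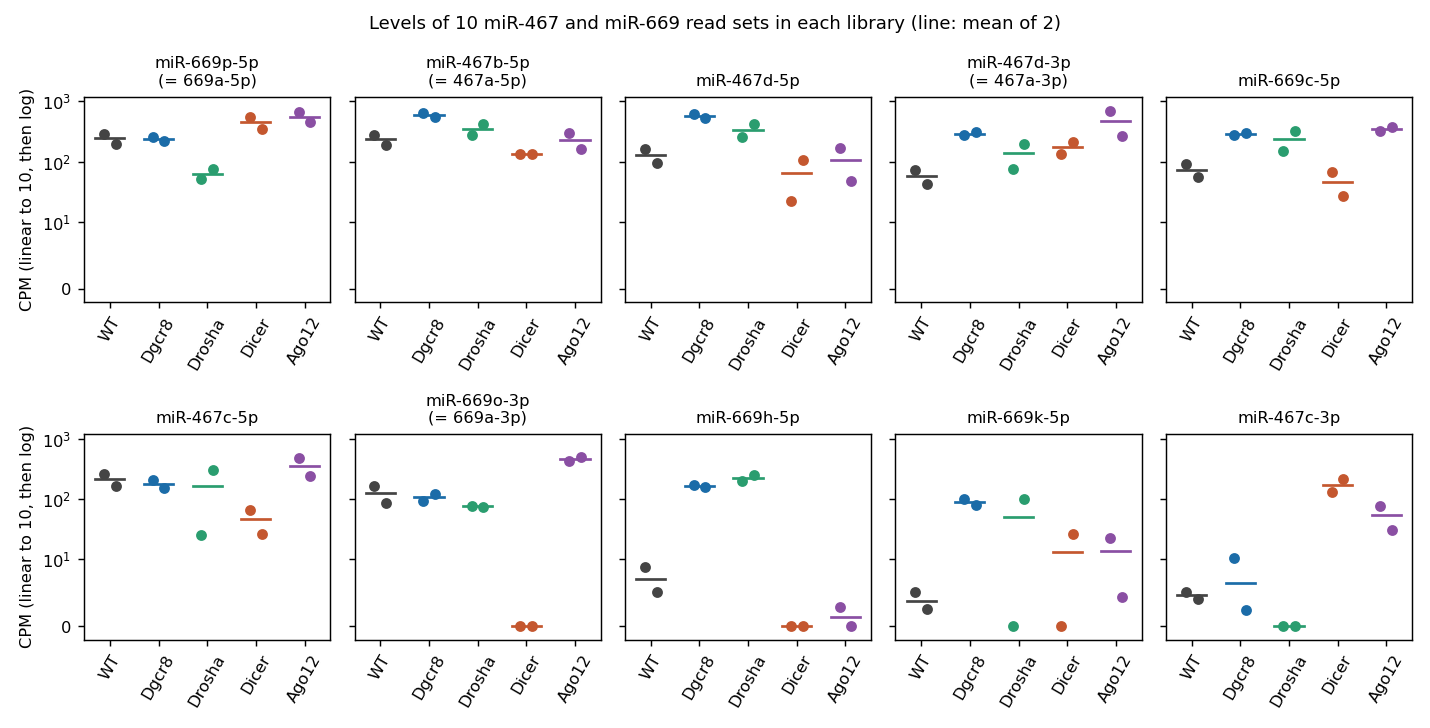
CPM (vertical axis, linear to 10 and logarithmic above) of 10 read sets in each library, grouped by genotype on the horizontal axis, with points for the 2 libraries and a line for their mean. miR-669h-5p lies at 157 to 248 CPM in the Dgcr8_KO and Drosha_KO libraries, under 10 CPM in WT, and has 1 read in Ago12_KO. It has no read in Dicer_KO, where a count of 0 allows up to 66.3 to 80.1 CPM, and miR-669o-3p is at 0 in both Dicer_KO libraries.

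Of the 43 members, 22 passed the filter on low counts (38.5 CPM on deposited counts in at least 2 libraries) and were tested among 481 entries. They form 18 read sets. WT libraries alone would have kept 13 of the 22. The other 9 (miR-467c-3p, miR-467e-3p, miR-669b-5p, miR-669d-5p, miR-669f-5p, miR-669h-5p, miR-669k-5p, miR-669l-5p and miR-669o-5p) were kept with the help of mutant libraries, so that counts of calls among the members tested describe them and no more. By single groups, miR-467c-3p and miR-467e-3p passed in Dicer_KO alone, miR-669k-5p in Dgcr8_KO alone, miR-669h-5p in Dgcr8_KO and Drosha_KO, and miR-669f-5p and miR-669l-5p in Ago12_KO alone. The filter thus favoured members that were higher there than in WT. The 4 comparisons with WT share the WT libraries.

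The comparison of Dgcr8_KO with WT asks how the members fare without the RNA-binding subunit of the Microprocessor. Of the 22 tested members 8 (6 read sets) were higher and 0 were lower by edgeR's quasi-likelihood test at an adjusted p under 0.05, with 1 higher and 14 lower when counts were left unscaled. DESeq2 also called 0 lower, and 0 were lower at an unadjusted p under 0.05 in edgeR. Over all 481 entries 32.4% were higher and 41.0% lower. The members' median log2 fold change was 0.68, against -0.41 over all entries. For comparison, 10 of 22 tested miR-466 and miR-297 entries were lower (median -1.61). Of the miR-17-92 cluster, a canonical proliferation-linked cluster, 2 of 13 were higher and 10 lower (median -3.69, or -2.89 with bounds). The miR-290 to miR-295 cluster, also canonical, had 6 of 14 higher and 4 lower (median 0.24). Of mirtrons, which are made by splicing, 9 of 9 were higher (median 3.70). These lists were tested with column totals as library sizes and with no other scaling.

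miR-669h-5p, the 5p strand of the last Mir467 or Mir669 hairpin in the intron, was at 173 and 157 CPM in Dgcr8_KO and at 8.91 and 5.14 CPM in WT. Each Dgcr8_KO library was thus far above each WT library, with 50 and 64 reads against 21 and 10. The log2 fold change was 4.49 (SE 0.46, edgeR adjusted p = 1.58e-05). miR-669h-5p passed the filter on low counts through Dgcr8_KO and Drosha_KO alone, so its test describes it and no more. Its 3p partner, miR-669h-3p, had 5 and 1 reads in Dgcr8_KO and 0 and 1 in WT, too few for the test.

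miR-669k-5p was at 100.2 and 80.8 CPM in Dgcr8_KO and 5.09 and 2.57 CPM in WT, again without overlap (log2 fold change 4.45 with SE 0.68, edgeR adjusted p = 1.64e-04). By single groups it passed the filter in Dgcr8_KO alone, so the same limit holds for it. No read of miR-669k-3p was counted. miR-669c-5p was at 276 and 303 CPM against 89.9 and 56.1 (1.98, SE 0.36, edgeR adjusted p = 5.44e-04).

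The miR-467 read sets that rose came from both arms, and all 3 had negative fold changes with unscaled counts. miR-467d-5p went from 164 and 96.7 CPM in WT to 608 and 524 CPM (log2 fold change 2.11 with SE 0.48, edgeR adjusted p = 0.00228). miR-467d-3p, which holds the same counts as miR-467a-3p, went from 73.4 and 43.2 to 276 and 308 CPM (2.32, SE 0.47, edgeR adjusted p = 0.00109). In each case both mutant libraries lay above both WT libraries. miR-467b-5p, which equals miR-467a-5p, went from 281 and 186 to 635 and 560 CPM (1.35, SE 0.34, edgeR adjusted p = 0.00437). Leaving out WT replicate 2 ended this call (1.09, edgeR adjusted p = 0.0660, range over the alternatives 6.30e-04 to 0.0660).

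Other abundant members were not called. miR-669p-5p was at 259 and 223 CPM in Dgcr8_KO, within the WT values of 293.1 and 198. miR-467c-5p was at 204 and 152 CPM against 264 and 163 in WT, and miR-669o-3p at 93.3 and 122 CPM against 163 and 85.4, so the groups overlapped for both. miR-467e-5p was at 152 and 122 CPM against 75.1 and 47.3, without overlap, and missed the threshold (1.15, SE 0.53, edgeR adjusted p = 0.0673). The make-up of the family differed between the groups: miR-467d-5p was 9.12% ± 0.340 of family reads in WT and 18.8% ± 0.858 in Dgcr8_KO, while miR-669p-5p went from 17.4% ± 1.04 to 8.01% ± 0.377.

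**Figure D2:**
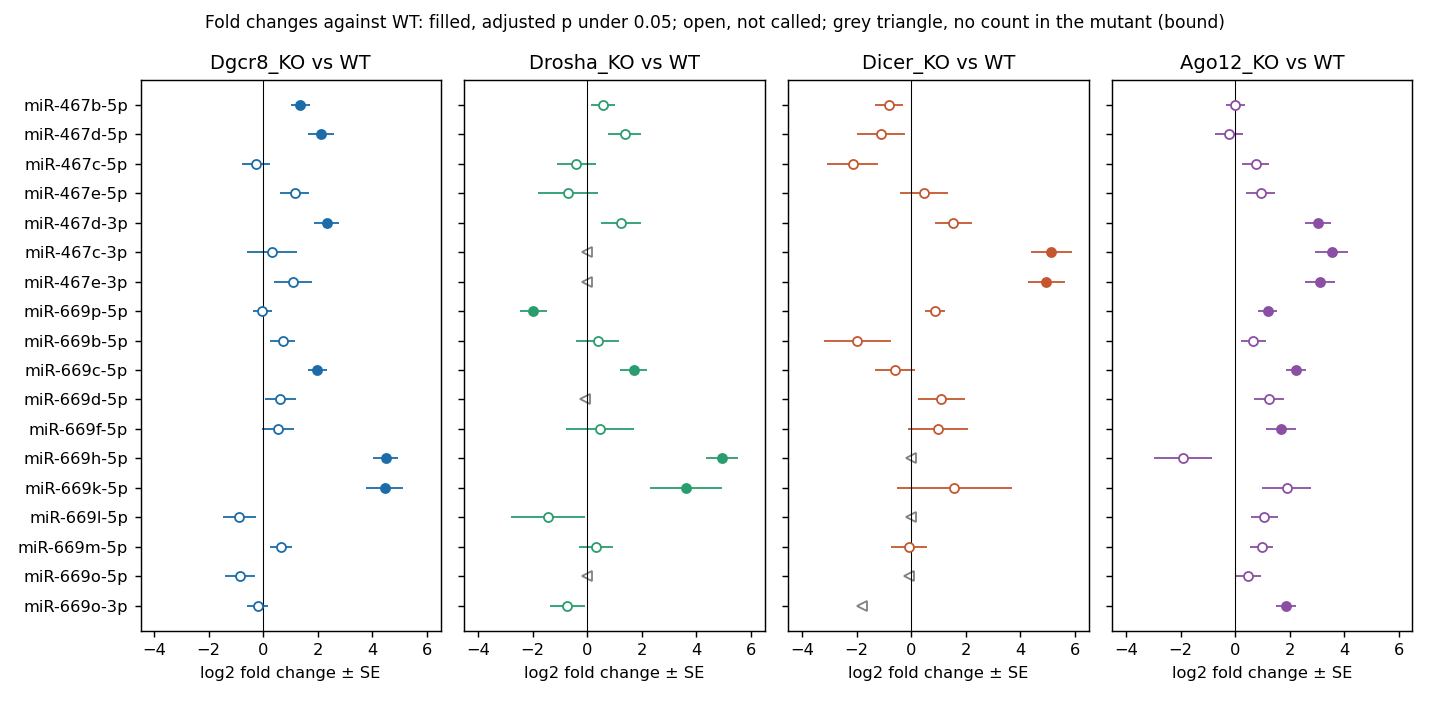
Log2 fold change against WT (horizontal axis, bars are 1 SE) of the 18 tested read sets in the 4 mutants. Filled points passed an edgeR adjusted p of 0.05, open points did not, and a grey triangle marks a bound from 3 counts where the mutant had no count; miR-669h-5p is the rightmost point in Dgcr8_KO and Drosha_KO, and miR-467c-3p in Dicer_KO and Ago12_KO. Unscaled counts, which leave the differences in depth in, move all points to the left and turn most calls on the right of 0 (closing section).

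In Drosha_KO, which lacks the cutting subunit of the same complex, 3 of 22 tested members were higher and 2 (1 read set) lower, beside 26.2% higher and 31.6% lower over all entries. The split was 1 higher and 4 lower with TMM factors and 0 and 20 with counts left unscaled. The members' median log2 fold change was -0.04 (0.16 with undetected members at their bound) against -0.87 over all entries (-3.43e-04 with bounds). Scaled the same way, 6 of 22 miR-466 and miR-297 entries were lower (median -1.47, or -0.51 with bounds). Of the miR-17-92 cluster 7 of 13 were lower (median -3.35, or -1.77 with bounds). The miR-290 to miR-295 cluster had 7 of 14 higher and 4 lower (median 0.76), and of mirtrons 9 of 9 were higher (median 4.59).

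miR-669h-5p, which passed the filter through Dgcr8_KO and Drosha_KO alone, was high here too, so its test describes it and no more. It was at 202 and 248 CPM from 8 and 10 reads, above both WT libraries (log2 fold change 4.94 with SE 0.58, edgeR adjusted p = 4.53e-05). miR-669c-5p was at 152 and 323 CPM, also above both (1.70, SE 0.48, edgeR adjusted p = 0.0111). Its call was lost with TMM factors (edgeR adjusted p = 0.0744), without WT replicate 2 (0.0629) and without Drosha_KO replicate 2 (0.225), over a range of 3.53e-04 to 0.225 among alternatives that kept the direction. Unscaled counts reversed it. miR-669k-5p was called as well (3.61, SE 1.33, edgeR adjusted p = 0.0371), but its values were 0 and 99.2 CPM, so the groups overlapped and the call rests on 4 reads in Drosha_KO replicate 2. It was lost without WT replicate 2 (0.0740), without Drosha_KO replicate 2 (0.682, with no read left), with TMM factors (0.0676) and when only these 2 groups were fitted (0.0819), within a range of 0.00160 to 0.0819 among alternatives that kept the direction.

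miR-669p-5p, the same counts as miR-669a-5p, moved the other way. It was at 50.6 and 74.4 CPM in Drosha_KO, below both WT libraries at 293.1 and 198 (log2 fold change -1.97 with SE 0.49, edgeR adjusted p = 0.00489). These are 2 and 3 reads after division. miR-467d-5p, at 253 and 422 CPM against 164 and 96.7, was not called (1.37, SE 0.60, edgeR adjusted p = 0.0686, range 0.0252 to 0.312 among alternatives in the same direction, with unscaled counts reversed), but was without Drosha_KO replicate 1 (0.0497), Ago12_KO replicate 1 (0.0298) or Ago12_KO replicate 2 (0.0297). miR-467c-5p had 25.3 and 298 CPM in Drosha_KO and miR-467b-5p 278 and 422 CPM, and both overlapped the WT libraries. miR-467c-3p, miR-467e-3p, miR-669d-5p and miR-669o-5p had no Drosha_KO read. The number of members called higher ran from 1 (without WT replicate 2 or Drosha_KO replicate 2) to 5 (without Drosha_KO replicate 1 or either Ago12_KO replicate). The Drosha_KO replicates themselves differed: 13 of 18 read sets were higher in replicate 2 and 1 in replicate 1, on 46 and 105 family reads.

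The mutants of the 2 Microprocessor subunits were compared directly. Of the 22 tested members 2 (1 read set) were higher in Dgcr8_KO and 0 lower, beside 5.61% higher and 8.32% lower over all entries, while unscaled counts gave 21 higher. DESeq2 also called 0 lower, and 0 were lower at an unadjusted p under 0.05 in edgeR. Without Dgcr8_KO replicate 1 the number higher was 0, and without Dgcr8_KO replicate 2 or Drosha_KO replicate 1 it was 1. The pair was miR-669a-5p and miR-669p-5p, the latter at 241 ± 25.7 CPM in Dgcr8_KO and 62.5 ± 16.8 CPM in Drosha_KO (log2 fold change 1.94 with SE 0.49, edgeR adjusted p = 0.0194). The miR-669p-5p call was lost with repeat-counted entries divided (0.0503) and without Dgcr8_KO replicate 1 (0.0876), Dgcr8_KO replicate 2 (0.0617) or Drosha_KO replicate 1 (0.101), over a range of 1.11e-04 to 0.101. miR-669h-5p differed by -0.46 (SE 0.49, edgeR adjusted p = 0.607), so no difference beyond the replicate spread was found for it between the mutants.

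**Figure D3:**
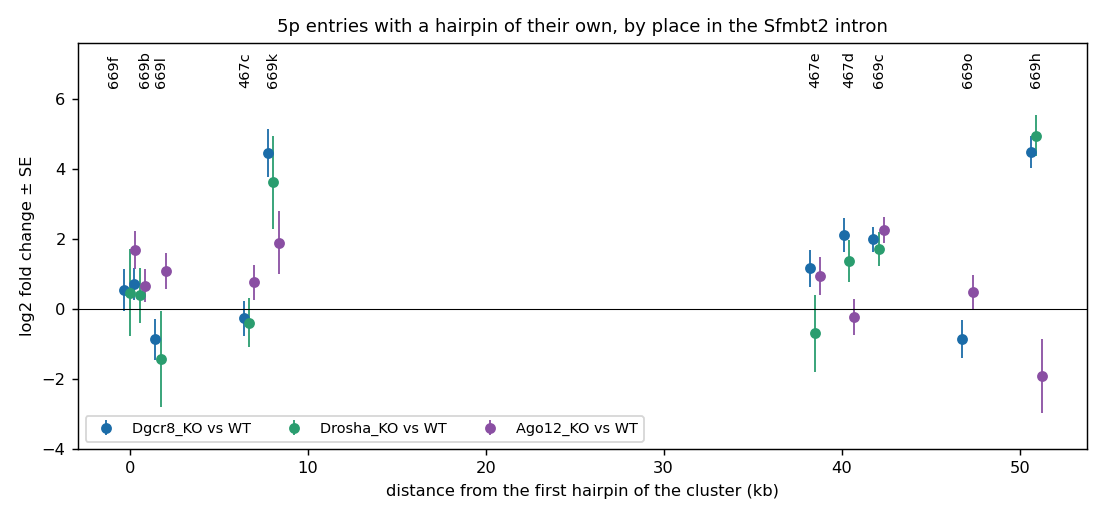
Log2 fold change against WT (vertical axis, bars are 1 SE) of the 5p entries that have a hairpin of their own, placed by their distance in kb from the first hairpin of the cluster (horizontal axis), with 1 colour per mutant. Entries with no count in a mutant are left out for that mutant. miR-669k at 8.07 kb and miR-669h at 50.9 kb are the high points for Dgcr8_KO and Drosha_KO, with lower points between them.

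Placed along the intron, members called higher in Dgcr8_KO lay apart and side by side. Mir467d at 40.4 kb and Mir669c at 42.1 kb are adjacent member hairpins whose 5p entries were both called. The hairpin of miR-669k lies 8.07 kb after the first hairpin of the cluster and that of miR-669h 50.9 kb after it. miR-467c-5p, whose hairpin at 6.70 kb comes shortly before Mir669k, had a log2 fold change of -0.27 in Dgcr8_KO (SE 0.51, edgeR adjusted p = 0.639). miR-669o-5p, at 47.1 kb between Mir669c and Mir669h, had -0.87 (SE 0.55, edgeR adjusted p = 0.178). The copies of Mir467a and Mir669a fill the middle of the cluster and cannot be placed one by one.

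Dicer_KO lacks the enzyme that cuts the hairpin, and the comparison with WT asks which member reads remain. Of the 22 tested members 3 were higher and 2 (1 read set) lower, beside 13.3% higher and 42.6% lower over all entries. DESeq2 size factors gave 6 higher and 1 lower, TMM factors 2 and 4, and unscaled counts 0 and 20. The members' median log2 fold change was -0.33 (0 with the 5 undetected members at their bound), against -2.78 over all entries (-0.81 with bounds). With column totals 1 of 22 miR-466 and miR-297 entries was higher and 8 lower, of the miR-17-92 cluster 1 of 13 higher and 8 lower, and of mirtrons 4 of 9 lower. The miR-290 to miR-295 cluster had 3 of 14 higher and 9 lower (median -2.80).

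3p strands of miR-467 held a larger share of the counted reads, while unscaled counts gave negative fold changes. Of these entries miR-467c-3p and miR-467e-3p passed the filter on low counts through Dicer_KO alone, so their tests describe them and no more. miR-467c-3p was at 133 and 213 CPM in Dicer_KO against 5.09 and 4.12 in WT (log2 fold change 5.14 with SE 0.74, edgeR adjusted p = 2.02e-04), and miR-467e-3p at the same 133 and 213 CPM against 5.94 and 4.63 (4.95, SE 0.68, edgeR adjusted p = 1.35e-04). Both mutant libraries lay above both WT libraries. These values are 6 and 8 reads, and miR-467d-3p, also divided miR-467a-3p, had 6 and 8 reads too, so 3 read sets that differ in WT had equal counts in Dicer_KO. Whether the same reads were counted in all 3 was not tested.

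miR-467b-3p had 2 and 4 counts in Dicer_KO and none in any other library. The miR-467a-3p entry as deposited was called higher (1.57, SE 0.54, edgeR adjusted p = 0.0267, range 1.59e-07 to 0.183), while miR-467d-3p with the same reads was not (1.54, SE 0.68, edgeR adjusted p = 0.0756, range 2.19e-04 to 0.372). Divided by 10, miR-467a-3p was not called either (0.0754). It was also lost without WT replicate 2 (0.163), Dicer_KO replicate 1 (0.0529) or Dicer_KO replicate 2 (0.183) and with TMM factors (0.0765), and miR-467d-3p was called without either Drosha_KO replicate (0.0470 for each) or without Ago12_KO replicate 1 (0.0388) or replicate 2 (0.0374).

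No miR-669 3p read was counted in Dicer_KO, and of these strands only the read set below was above the floor there in WT. miR-669o-3p, equal to divided miR-669a-3p, had no read in Dicer_KO against 163 and 85.4 CPM in WT (edgeR adjusted p = 0.00528). At the floor of 3 counts over both libraries this is 3.52-fold lower, with counting error on the WT reads left out. The call was lost with DESeq2 size factors in edgeR (0.0526) and in DESeq2 (0.0563), over a range of 2.45e-06 to 0.0563. miR-669p-5p from the other arm was at 553 and 347 CPM against 293.1 and 198, without overlap, and was not called (log2 fold change 0.88 with SE 0.36, edgeR adjusted p = 0.0599, range 1.15e-07 to 0.414). It was called without Drosha_KO replicate 1 (0.0394) or 2 (0.0390), Dicer_KO replicate 2 (0.0400), or Ago12_KO replicate 1 (0.0437) or 2 (0.0453). With 25 and 13 reads it was the leading read set, 28.1% ± 10.1 of 71 and 62 family reads.

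miR-467c-5p, at 66.3 and 26.7 CPM against 264 and 163 in WT, was below both WT libraries and not called (-2.14, SE 0.93, edgeR adjusted p = 0.0709, range 1.26e-05 to 0.590). It was called without Drosha_KO replicate 1 (0.0170) or 2 (0.0171). miR-669h-5p had no Dicer_KO read, but its WT level of 5.14 to 8.91 CPM is under the floor there, so a change was not detectable at this depth. Without Drosha_KO replicate 1 or 2, 4 members were lower and 6 higher, and without Ago12_KO replicate 1 or 2, 5 were higher.

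Dicer_KO and Drosha_KO have like count totals and were compared directly. Fragment-like entries weigh on these totals unequally. Leaving these entries out of the totals took the family share from 0.237% to 0.453% in Dicer_KO and from 0.251% to 0.262% in Drosha_KO. The tests below kept them in the column totals. Of the 22 tested members 4 (3 read sets) were higher and 6 (5 read sets) lower in Dicer_KO, beside 13.5% and 30.4% over all entries, with 2 lower under TMM factors, DESeq2 size factors or no scaling. miR-669p-5p was at 553 and 347 CPM in Dicer_KO and 50.6 and 74.4 CPM in Drosha_KO (log2 fold change 2.85 with SE 0.50, edgeR adjusted p = 8.11e-04). miR-669h-5p was the reverse, with 18 reads in Drosha_KO and none in Dicer_KO (edgeR adjusted p = 0.00254). At the floor of 3 counts over both libraries this is 6.22-fold lower, with counting error on the 18 reads left out. The filter kept miR-669h-5p through Dgcr8_KO and Drosha_KO, and miR-467c-3p and miR-467e-3p through Dicer_KO, so their tests describe them and no more. The 3p entries miR-467c-3p and miR-467e-3p had no read in Drosha_KO and 6 and 8 in Dicer_KO (edgeR adjusted p = 0.0111 and 0.00763), whereas miR-669o-3p was at 75.9 and 74.4 CPM in Drosha_KO and had no read in Dicer_KO (edgeR adjusted p = 0.0388). The miR-669o-3p call was lost under TMM factors (0.0608), DESeq2 size factors (0.115 in edgeR, 0.139 in DESeq2), no scaling (0.0554), no filter (0.0539) and a fit of these 2 groups (0.0659). It was also lost without Drosha_KO replicate 1 (0.0631) or 2 (0.0644), Dicer_KO replicate 1 (0.128) or 2 (0.106), or Ago12_KO replicate 1 (0.0716) or 2 (0.0722), over a range of 0.0270 to 0.139. That of miR-467c-3p was lost without Dicer_KO replicate 2 (0.0505, range 3.08e-04 to 0.0505). The miR-669p-5p and miR-669h-5p calls held in every alternative run, with highest adjusted p = 0.0102 and 0.0177 by edgeR or DESeq2.

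The 5p calls of miR-669c, miR-467d and miR-467a in that comparison were not stable either. miR-669c-5p was at 66.3 and 26.7 CPM in Dicer_KO and 152 and 323 in Drosha_KO (-2.30, SE 0.74, edgeR adjusted p = 0.0273), miR-467d-5p at 22.1 and 107 against 253 and 422 (-2.47, SE 0.91, edgeR adjusted p = 0.0479), and miR-467a-5p at 133 and 133 against 278 and 422 (-1.40, SE 0.39, edgeR adjusted p = 0.0133). Adjusted p-values ranged from 0.0118 to 0.309, 0.00891 to 0.346 and 0.00266 to 0.898 over the alternatives. The miR-669c-5p call was lost without Drosha_KO replicate 2 (0.184) or Dicer_KO replicate 1 (0.0585) or 2 (0.127). That of miR-467d-5p was lost without Dgcr8_KO replicate 1 (0.0606) or 2 (0.0603), Drosha_KO replicate 2 (0.138) or Dicer_KO replicate 1 (0.260) or 2 (0.0686), and that of miR-467a-5p without Dicer_KO replicate 1 (0.0688) or 2 (0.0667) and with its counts divided (0.0721). DESeq2 size factors ended all 3 calls. miR-467b-5p, with the same reads counted once, was not called (edgeR adjusted p = 0.0719). Without Drosha_KO replicate 2 the number lower was 3, and without Dicer_KO replicate 1 or 2 it was 2.

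Ago12_KO lacks the 2 Argonaute proteins Ago1 and Ago2, and the comparison asks which strands keep their share without them. Of the 22 tested members 10 (7 read sets) were higher and 0 lower, beside 28.7% higher and 25.8% lower over all entries, with 0 higher and 12 lower when counts were left unscaled. At an unadjusted p under 0.05 edgeR had 12 higher and 0 lower, and DESeq2 called 0 lower. The members' median log2 fold change was 1.19, against -0.02 over all entries. With column totals 10 of 22 miR-466 and miR-297 entries were higher (median 0.90), of the miR-17-92 cluster 4 of 13 higher and 3 lower, and of mirtrons 6 of 9 lower (median -3.51). In the miR-290 to miR-295 cluster 1 of 14 was higher and 5 lower (median -0.19).

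All 3 tested 3p read sets of miR-467 rose, but with unscaled counts none of them was called, at log2 fold changes of 0.76 (miR-467c-3p, edgeR adjusted p = 0.345), 0.33 (miR-467e-3p, 0.661) and 0.24 (miR-467d-3p, 0.730). Over the alternatives the adjusted p ranged up to these values from 5.42e-08, 2.32e-06 and 1.33e-11 in that order. miR-467d-3p, the reads of miR-467a-3p, reached 693 and 270 CPM from 73.4 and 43.2 in WT (log2 fold change 3.05 with SE 0.48, edgeR adjusted p = 2.93e-04). miR-467c-3p reached 77.3 and 30.5 CPM from 5.09 and 4.12 (3.54, SE 0.60, edgeR adjusted p = 6.08e-04), and miR-467e-3p 65.8 and 26.2 CPM from 5.94 and 4.63 (3.12, SE 0.55, edgeR adjusted p = 8.18e-04). No mutant library overlapped a WT library, although Ago12_KO replicate 1 was above replicate 2 by more than 2-fold for each. Of the 5p strands of these hairpins none was called: miR-467b-5p was at 301 and 161 CPM against 281 and 186 in WT, and miR-467d-5p at 166 and 47.9 CPM against 164 and 96.7.

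Of miR-669, members of both arms rose, and with unscaled counts the 4 called below had negative fold changes. miR-669o-3p, the reads of miR-669a-3p, was at 421 and 493 CPM against 163 and 85.4 (log2 fold change 1.87 with SE 0.37, edgeR adjusted p = 0.00167), and miR-669c-5p at 323 and 375 CPM against 89.9 and 56.1 (2.25, SE 0.37, edgeR adjusted p = 3.89e-04). miR-669p-5p was at 664 and 453 CPM against 293.1 and 198 (1.19, SE 0.34, edgeR adjusted p = 0.0115). That call was lost with TMM factors (0.179) and without WT replicate 2 (0.128) or Ago12_KO replicate 1 (0.0684), over a range of 0.00373 to 0.179. miR-669f-5p was at 60.1 and 56.7 CPM against 23.8 and 12.3 (1.68, SE 0.55, edgeR adjusted p = 0.0237), lost in the same alternatives (0.141, 0.158 and 0.0947, range 0.00975 to 0.158). By single groups miR-669f-5p passed the filter in Ago12_KO alone, so its test describes it and no more. Other members lay closer to WT: miR-467c-5p was at 472 and 244 CPM against 264 and 163 and miR-467e-5p at 175 and 52.3 CPM against 75.1 and 47.3, and neither was called. miR-669h-5p was at 2.86 and 0 CPM against 8.91 and 5.14, from 1 read, and was not called (-1.92, SE 1.07, edgeR adjusted p = 0.151, range 0.00143 to 0.385).

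**Figure D4:**
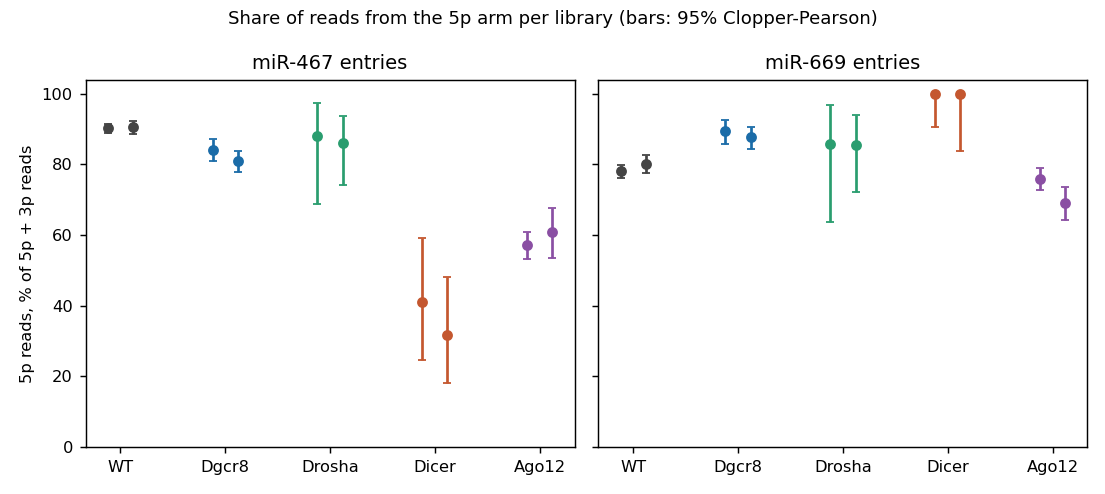
Share of 5p reads among the 5p and 3p reads of miR-467 (left) and miR-669 (right) entries in each library, in percent, with each read set counted once and 95% Clopper-Pearson bars. For miR-467 the Dicer_KO libraries (41.2% and 31.7%) and the Ago12_KO libraries (57.1% and 60.7%) lie below the WT libraries (90.3% and 90.5%), and for miR-669 both Dicer_KO libraries lie at 100%, while without miR-467c-3p and miR-467e-3p the miR-467 values in Dicer_KO would be 63.6% and 52.0%.

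The balance between the arms compares 5p with 3p counts within each library and does not depend on library scaling. Of miR-467 reads, the 5p arm took 90.4% ± 0.133 in WT, 87.0% ± 1.44 in Drosha_KO, 82.5% ± 2.32 in Dgcr8_KO, 58.9% ± 2.55 in Ago12_KO and 36.4% ± 6.70 in Dicer_KO. The Dicer_KO value counts the equal 3p reads of miR-467d, miR-467c and miR-467e separately. With miR-467c-3p and miR-467e-3p left out of all libraries, a choice made after seeing the data, the 5p share was 57.8% ± 8.23 in Dicer_KO, 63.4% ± 2.49 in Ago12_KO and 91.7% ± 0.355 in WT. Of miR-669 reads it took 79.2% ± 1.52 in WT, 88.6% ± 1.28 in Dgcr8_KO, 85.6% ± 0.210 in Drosha_KO and 72.5% ± 4.81 in Ago12_KO. In Dicer_KO all 37 and 21 miR-669 reads with an arm in their name were 5p (Clopper-Pearson lower limits 90.5% and 83.9%).

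A set of 4 member hairpins had a mean of at least 20 divided counts per arm and was tested by limma on the log2 ratio of 5p to 3p counts among 82 hairpins. In Ago12_KO 3 of the 4 were called, beside 43.9% of all hairpins, each toward 3p: miR-467a went from 2.02 in WT to -0.97 (difference -2.99, SE 0.45, limma adjusted p = 0.00173), miR-467d from 1.16 to -2.25 (-3.41, SE 0.51, limma adjusted p = 0.00173), and miR-669o from -1.70 to -3.19 (-1.50, SE 0.51, limma adjusted p = 0.0405). The 3p counts of miR-467a and miR-467d are the same, as are those of miR-669a and miR-669o, so these ratios set the 5p counts of 1 entry against 3p counts shared by many hairpins and are not separate. The miR-669o call was lost with the replicate block (0.0518), without WT replicate 1 (0.119) or 2 (0.205), without Dgcr8_KO replicate 1 or 2 (0.0521 for each) and without Ago12_KO replicate 2 (0.209), over a range of 0.0179 to 0.209 (limma adjusted p). The median over all hairpins moved by -0.49.

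In Dicer_KO all 4 were called, beside 48.8% of all hairpins, but in both directions. miR-467a (difference -2.33, SE 0.45, limma adjusted p = 0.00417) and miR-467d (-2.67, SE 0.51, limma adjusted p = 0.00394) moved toward 3p. In the Dicer_KO libraries miR-467a had 6 and 5 reads on 5p, miR-467d had 1 and 4, and each had 6 and 8 on 3p. miR-669a moved toward 5p by 4.18 (SE 0.52, limma adjusted p = 3.84e-04), a size set by the pseudocount since no 3p read was left (2.31 with a pseudocount of 2). miR-669o had no read on either arm, so its call carries no measurement. In Dgcr8_KO and Drosha_KO 0 of the 4 were called by limma, with 0 and 1 at an unadjusted p under 0.05 (miR-669a in Drosha_KO, -1.27, limma adjusted p = 0.114), beside 1.22% and 14.6% of all hairpins.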

How the data were processed

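The authors deposited raw read counts per mature miRNA name. Per the submitters' processing notes reads were aligned with Bowtie to mm10, while versions, the counting tool and the handling of multiply mapped reads are not given in the sources used. Per the labels, TruSeq small RNA libraries started from 1 ug of total RNA.

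Under R 4.3.3, the quasi-likelihood test of edgeR 4.0.16 was run on the deposited counts, taking column totals as library sizes, 1 fit over all 5 groups (5 residual degrees of freedom), filterByExpr (minimum count 10, minimum total 15) and Benjamini-Hochberg adjustment over 481 entries. Counts of entries whose values in at least 3 libraries were all multiples of 1 number were divided by it for levels, sums and arms. Arms were tested with limma 3.58.1 (pseudocount 0.5). Shares have 95% Clopper-Pearson intervals (scipy 1.17.1). On simulated counts edgeR recovered 89.6%, 61.2%, 64.2% and 80.6% of 4-fold changes in Dgcr8_KO, Drosha_KO, Dicer_KO and Ago12_KO against WT. Of 2-fold changes it recovered 46.3%, 13.4%, 17.9% and 37.3% in the same order. The simulation covered all 481 entries at their mean levels, not the members alone.

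Members and lists were chosen with earlier results of these data known. Values are printed for the 10 most abundant members and for called members (at most 6 per direction, by fold change). Others (such as miR-467b-3p, miR-467g and miR-669h-3p) were picked with their values in view. Alternatives were other scalings, filters, fits and DESeq2 1.42.0. Counting shared read sets once, and leaving 2 entries out of the 3p reads, were added after seeing the data.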

Additional observations from a re-analysis of the deposited data

How the results depend on the processing

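Depth limits Drosha_KO and Dicer_KO most, where a family member rests on 0 to 25 reads. Unscaled fits took all libraries as equally deep, so shifts under them follow the differences in depth. Leaving counts unscaled moved the median of all entries by -2.62 (Dgcr8_KO), -5.53 (Drosha_KO), -2.87 (Ago12_KO) and -4.75 (Dicer_KO), TMM factors by -0.31, -0.60, -0.65 and -0.28, and DESeq2 size factors by -0.037, 0.12, -0.23 and 1.11.

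Members called higher and lower were without scaling 1 and 14 in Dgcr8_KO, 0 and 12 in Ago12_KO, and 0 and 20 in each of Drosha_KO and Dicer_KO, and 21 higher in Dgcr8_KO against Drosha_KO. There the reversed log2 fold changes were, in Dgcr8_KO, -0.32 (miR-467d-3p), -0.56 (miR-467d-5p), -0.65 (miR-669c-5p) and -1.31 (miR-467b-5p), in Drosha_KO, -0.78 (miR-669h-5p), -2.02 (miR-669k-5p), -4.06 (miR-669c-5p) and -4.40 (miR-467d-5p), in Dicer_KO, -0.51 (miR-467c-3p), -0.71 (miR-467e-3p), -4.17 (miR-467d-3p), -4.20 (miR-467a-3p) and -4.82 (miR-669p-5p), in Ago12_KO, -0.69 (miR-669c-5p), -1.08 (miR-669o-3p), -1.23 (miR-669f-5p) and -1.68 (miR-669p-5p), and 2.65 for miR-669h-5p in Dgcr8_KO against Drosha_KO. miR-669k-5p in Drosha_KO also turned to -4.38 without Drosha_KO replicate 2, where no read was left, against 4.60 without replicate 1. With TMM factors 1 and 4 members were higher and lower in Drosha_KO, 4 were lower in Dicer_KO, and 2 were lower in Dicer_KO against Drosha_KO. DESeq2 size factors in edgeR gave 6 higher and 1 lower in Dicer_KO and 2 lower against Drosha_KO, and DESeq2 itself 7, 1 and 2, or 5 higher with column totals. Without a filter 1 was lower in Dgcr8_KO, 5 higher in Drosha_KO and 5 higher in Dicer_KO. Fitting only 2 groups gave 6 and 6 in Dicer_KO. Division of repeat-counted entries left 0 higher in Dgcr8_KO against Drosha_KO. A pseudocount of 2 called 1 member hairpin in Drosha_KO (miR-669a) and took miR-669o there from -1.11 to 0.36, not called in either.

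With 1 library left out, calls ran from 1 to 5 higher in Drosha_KO, 2 to 4 lower and 2 to 6 higher in Dicer_KO, 0 to 3 higher in Dgcr8_KO against Drosha_KO and 2 to 6 lower in Dicer_KO against Drosha_KO. The cause was not tested. As deposited, undivided, the family share was 0.895% in WT, 2.28% in Ago12_KO, 1.63% in Dgcr8_KO, 1.06% in Dicer_KO and 0.847% in Drosha_KO. Without fragment-like entries in the total it was 0.209% in WT, 0.446% in Dgcr8_KO and 0.453% in Dicer_KO. With each read set counted once it was 0.300%, 0.161% and 0.332% in Dgcr8_KO, Dicer_KO and Ago12_KO. Without miR-467c-3p and miR-467e-3p the 5p share of miR-467 reads was 91.7% in WT, 63.4% in Ago12_KO and 57.8% in Dicer_KO. Of 740 repeat fits of 37 named results, 628 kept direction and side of the threshold, 65 lost the call, 28 gained one and 19 reversed. The reversals came with unscaled counts, apart from that of miR-669k-5p without Drosha_KO replicate 2.

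No label ties same-numbered libraries of different groups together, and deviations of same-numbered libraries correlated at -0.045 to 0.12 over 10 pairs of groups. A fit with the replicate block called 8 higher in Dgcr8_KO and 10 in Ago12_KO, 3 higher and 2 lower in both Drosha_KO and Dicer_KO, and 2 member hairpins for arm balance in Ago12_KO, without miR-669o.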
